A study of Homo sapiens with 9 samples.

Results

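The HOXA members examined here are HOXA3, HOXA5, HOXA6, HOXA7, HOXA9, HOXA10, HOXA11 and HOXA13, and they were followed together with MEIS1 and PBX3 in U937 cells in which doxycycline switches on either the AML1-ETO or the ETO2-GLIS2 fusion protein. These 10 genes were chosen by name among the 60623 genes of each expression file, and each name had 1 Ensembl identifier. U937 is a human monocytic cell line that carries the PICALM-MLLT10 fusion, a known driver of HOXA expression in leukemia. The sequenced stable lines were the empty vector line (U937-CTR, genotype given as WT), the AML1-ETO line (U937-AE, clone #4) and the ETO2-GLIS2 line (U937-EG, clone #14). Each was sampled at 0, 12 and 48 h of 5 μg/ml doxycycline, so the control line received the drug too. The lines were made by retroviral transduction and each fusion line is a single clone, and a difference between lines cannot be told apart from a difference between clones. Each of the 9 conditions had 1 library, so no difference has a replicate check and no p-value is given.

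HOXA genes encode homeodomain transcription factors that are active in blood stem and progenitor cells and are normally switched off as myeloid cells mature. HOXA9 binds DNA together with MEIS1 and PBX3, which belong to the TALE class of homeodomain proteins, and the 3 together sustain many acute leukemias, those with PICALM-MLLT10 or KMT2A fusions among them. AML1-ETO joins the DNA-binding Runt domain of RUNX1 to the corepressor RUNX1T1 (ETO), and ETO2-GLIS2 joins the corepressor CBFA2T3 (ETO2) to the zinc fingers of GLIS2. Leukemias with AML1-ETO usually have low HOXA expression.

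The 8 HOXA genes lie within 1 stretch of chromosome 7 in GRCh38 coordinates from RefSeq, from HOXA3 (start 27107010) to HOXA13 (end 27200091), all on the minus strand. MEIS1 lies on chromosome 2 from 66435125 to 66573869 and PBX3 on chromosome 9 from 125747373 to 125967377. RefSeq promoter sequences (GRCh38.p14) were found for 9 of the 10 genes, with 16 start sites in all. The 250 bases before a start are shown for the pair whose levels moved apart most, MEIS1 (chr2:66434875-66435124, plus strand) and PBX3 (chr9:125747933-125748182, plus strand, a start inside the gene), for HOXA9 (chr7:27165538-27165787, minus strand), the member with the most even level, and for HOXA13 (chr7:27200092-27200341, minus strand), which was lowest at 48 h in every line. All are written 5′ to 3′ in the direction of the gene, and capitals mark a match to one of the motifs searched.
MEIS1: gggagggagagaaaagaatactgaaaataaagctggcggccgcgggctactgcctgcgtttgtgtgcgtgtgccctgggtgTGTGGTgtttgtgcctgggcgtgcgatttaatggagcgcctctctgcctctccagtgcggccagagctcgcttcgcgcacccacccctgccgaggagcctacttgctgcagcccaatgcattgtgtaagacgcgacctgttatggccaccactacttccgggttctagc
PBX3: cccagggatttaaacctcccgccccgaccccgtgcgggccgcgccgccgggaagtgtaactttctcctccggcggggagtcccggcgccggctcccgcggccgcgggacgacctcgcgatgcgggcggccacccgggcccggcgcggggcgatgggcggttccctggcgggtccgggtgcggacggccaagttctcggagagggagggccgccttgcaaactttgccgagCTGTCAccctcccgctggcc
HOXA9: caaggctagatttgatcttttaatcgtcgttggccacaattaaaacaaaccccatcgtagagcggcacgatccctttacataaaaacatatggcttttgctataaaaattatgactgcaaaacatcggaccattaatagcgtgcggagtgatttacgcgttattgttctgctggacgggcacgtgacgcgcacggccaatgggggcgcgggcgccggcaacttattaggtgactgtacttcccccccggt
HOXA13: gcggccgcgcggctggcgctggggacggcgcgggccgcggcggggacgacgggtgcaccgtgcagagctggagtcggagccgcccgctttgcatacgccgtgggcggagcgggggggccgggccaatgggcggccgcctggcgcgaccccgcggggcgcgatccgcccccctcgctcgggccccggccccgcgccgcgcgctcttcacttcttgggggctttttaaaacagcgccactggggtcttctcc
The motifs, searched on both strands, were TGTGGT and its variant TGCGGT for the Runt domain, TGACAG for MEIS proteins, TGATTTAT for a HOX protein with PBX, and TGGGGGGT for the GLIS zinc fingers. The MEIS1 promoter held TGTGGT, which begins 169 bases before the start and is present in 3855 of 35116 promoters of the same length. The PBX3 promoter held TGACAG on the opposite strand, 20 bases before the start (4577 of the promoters). Apart from these, TGCGGT was found before 2 of the HOXA3 starts and TGGGGGGT before 1 of them (5.84% and 1.33% of promoters), and TGATTTAT was in none of the 16 windows (0.752% of promoters). A match is a description of the letters only. The windows of MEIS1, PBX3, HOXA9 and HOXA13 held 16, 36, 20 and 40 CG dinucleotides, against a median of 11 over all promoters.

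The labels of the libraries were checked on the fusion partners. RUNX1T1, which is not listed above 0.024 FPKM in the other lines, was at 0.512, 22.2 and 28.7 FPKM in U937-AE at 0, 12 and 48 h, and GLIS2 was at 2.39, 6.79 and 8.85 FPKM in U937-EG. GLIS2 was also present in U937-CTR (4.76, 3.64 and 3.72 FPKM) and U937-AE (5.6, 2.93 and 2.47 FPKM), above U937-EG at 0 h and below it at 12 and 48 h. FPKM are reads scaled by exon length and by the library total, and the 9 library totals ran from 15136398 to 18443639 reads on genes. Of 11 monocytic and myeloid markers, 10 reached 1 FPKM. Their summed level was 1353 to 2730 FPKM in 8 libraries and 411.7 FPKM in U937-AE at 48 h. It was lowest at 48 h in every line. The sums at 0, 12 and 48 h were 1641, 1944 and 1395 FPKM in U937-CTR and 2583, 2725 and 1353 FPKM in U937-EG. No T-cell marker (CD3D, CD3E and CD3G were at 0) and no epithelial marker reached 1 FPKM in any library. Of 4 B-cell markers, 3 reached 1 FPKM (summed 4.435 to 7.66), as did 1 of 4 erythroid and 1 of 4 megakaryocyte markers (summed 1.353 to 2.803 and 1.068 to 2.367). In bulk RNA, fewer cells of a kind and less RNA per cell cannot be told apart.

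The cluster was on in every line before induction. At 0 h, averaged over the 3 lines, HOXA9 was the highest member with 18.1 FPKM, followed by HOXA10 (17.5), HOXA13 (15.4), HOXA11 (13.5), HOXA5 (8.17), MEIS1 (7.37), PBX3 (6.01), HOXA6 (4.91), HOXA7 (1.72) and HOXA3 (1.43). Across all 9 libraries HOXA9 was above 85.9% to 90.2% of the genes listed above 0, and HOXA3 above 48.6% to 55.4%. Neighbours in this order overlapped in the range of the 3 lines, except that HOXA5 stayed below HOXA11, PBX3 below MEIS1 and HOXA7 below HOXA6. HOXA2 and HOXA4, which are not among the members, were low: HOXA2 was at 0.627 to 0.776 FPKM at 0 h, and HOXA4 was at 0 in U937-EG and below 0.42 FPKM in the others.

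**Figure D1:**
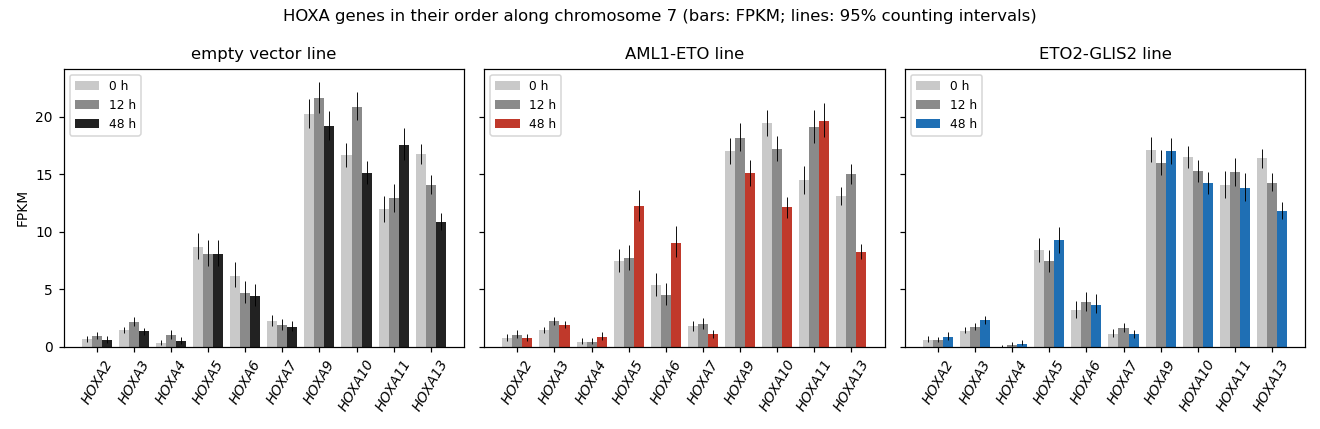
FPKM of 10 HOXA genes in their order along chromosome 7, in 1 panel per line, with bars for 0, 12 and 48 h and lines for 95% counting intervals. HOXA9, HOXA10, HOXA11 and HOXA13 are the tall group in every library except the AML1-ETO line at 48 h. There HOXA5 and HOXA6 are taller than in any other library. In that library HOXA5 (12.2 FPKM) is above HOXA10 (12.1 FPKM) and HOXA13 (8.27 FPKM), and HOXA6 (9.05 FPKM) is above HOXA13.

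The uninduced lines were close to each other for most members. Between U937-AE and U937-CTR at 0 h, the log2 fold change ran from -0.35 (HOXA13) to 0.28 (HOXA11). None of the 10 passed 2-fold, against 4.9% of all genes tested. Between U937-EG and U937-CTR, HOXA6 (3.21 against 6.17 FPKM) and HOXA7 (1.15 against 2.22 FPKM) were the lowest members relative to control, with log2 fold changes of -0.94 (95% counting interval -1.37 to -0.52) and -0.95 (-1.48 to -0.44). Again none passed 2-fold, against 6.41% of genes, but only 3.32% and 3.27% of the genes tested had a lower change than HOXA6 and HOXA7. Here and below, a fold change is on the log2 scale after adding 0.01 FPKM, a gene was tested when its mean over both libraries was at least 1 FPKM, and counting intervals cover the counting of reads only, not variation between cultures.

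The summed FPKM of the 8 HOXA members stayed between 73.1 and 86.3 FPKM. It was 84.0, 86.3 and 78.2 FPKM in U937-CTR at 0, 12 and 48 h, 80.0, 86.0 and 79.4 FPKM in U937-AE, and 78.1, 75.4 and 73.1 FPKM in U937-EG. The U937-CTR and U937-AE values overlapped, and the U937-EG values lay below both, at 0 h too. At 48 h against 0 h, the median log2 fold change of the 10 genes was -0.10 in U937-CTR, 0.11 in U937-AE and 0.04 in U937-EG, beside medians over all genes tested of 0.16, 0.22 and 0.16. Since the median of all genes lay above 0 by this much on the FPKM scale, a gene with the same FPKM at both times stood slightly lower relative to the typical gene, and after rescaling by the median ratio the medians of the 10 genes were -0.25, -0.05 and -0.13.

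Few members passed 2-fold over 48 h. In U937-CTR, none was called higher (8.0% of genes were) and none lower (2.99%). In U937-EG, likewise, none was called higher (10.8% of genes) and none lower (2.54%). In U937-AE, MEIS1 was called higher (17.3% of genes were) and none lower (11.3%). In each of these 3 comparisons, all 10 members fell between the 5th and the 95th percentile of the genes tested. At 12 h against 0 h no member passed 2-fold in any line, against 7.53% of genes in U937-CTR, 8.97% in U937-AE and 4.49% in U937-EG.

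Differences below 2-fold were compared with counting error. In U937-AE at 48 h, the counting interval of the change left out 0 for all 10 members, 5 above and 5 below, with a median absolute log2 fold change of 0.70. Over all genes tested with recovered reads the interval left out 0 for 77.8%, and the median absolute change of all genes tested was 0.59. In U937-CTR it left out 0 for 5 members (2 above, 3 below) and in U937-EG for 4 (2 above, 2 below), with median absolute changes of 0.15 and 0.17. The shares over all genes were 66.0% and 67.4% there, and the median absolute changes 0.34 and 0.33.

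**Figure D2:**
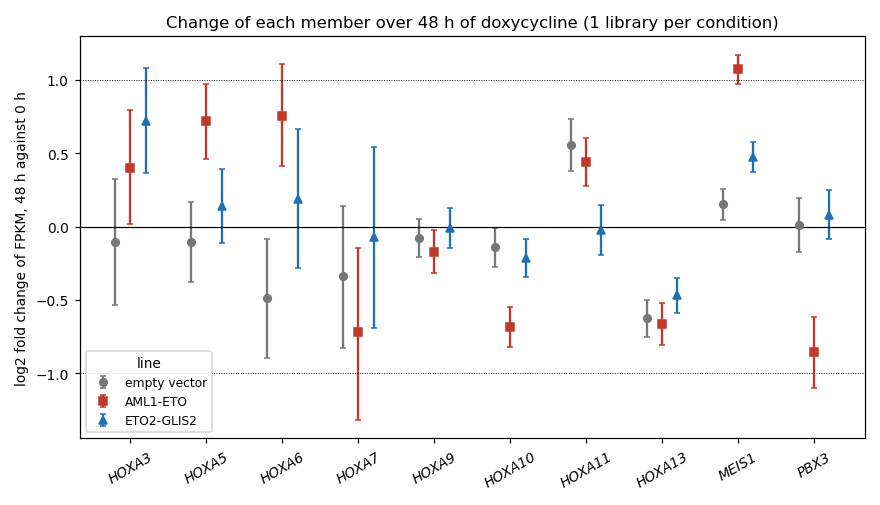
Log2 fold change of FPKM at 48 h against 0 h for each member in the 3 lines, with 95% counting intervals and dotted lines at 2-fold. In the AML1-ETO line MEIS1 lies at 1.07 and PBX3 at -0.85, and HOXA13 lies below 0 in all 3 lines.

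Of the members, HOXA9 was the steadiest. This factor, whose expression marks poor outcome in acute myeloid leukemia, had 20.2, 21.6 and 19.2 FPKM in U937-CTR at 0, 12 and 48 h, 17.0, 18.2 and 15.1 FPKM in U937-AE, and 17.1, 16.0 and 17.0 FPKM in U937-EG. The control line was above both fusion lines at each time, already at 0 h. The SD of its log2 FPKM over the 9 libraries was 0.16, and 9.7% of 11820 genes with a mean of at least 1 FPKM had a lower one. Its change over 48 h was -0.08 (-0.21 to 0.05) in U937-CTR, -0.17 (-0.32 to -0.02) in U937-AE and -0.01 (-0.15 to 0.13) in U937-EG. Of its exon bases, 15.9% are shared with other genes of the same strand and 13.9% lie opposite HOXA10-AS, and the library kit does not mark strand, so reads of such pairs cannot be told apart.

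HOXA10, a neighbour with which HOXA9 is often co-expressed, was lowest in U937-AE at 48 h. It had 19.4, 17.2 and 12.1 FPKM there, against 16.6, 20.9 and 15.1 FPKM in U937-CTR and 16.5, 15.3 and 14.2 FPKM in U937-EG. The other 8 libraries had at least 14.2 FPKM. The log2 fold change over 48 h was -0.68 (-0.82 to -0.54) in U937-AE, -0.14 (-0.27 to -0.01) in U937-CTR and -0.22 (-0.34 to -0.09) in U937-EG. After subtracting the change of U937-CTR, -0.54 (-0.73 to -0.35) remained in U937-AE and -0.07 (-0.26 to 0.11) in U937-EG. At 12 h, the fusion lines were alike in this, at -0.50 (-0.67 to -0.33) and -0.44 (-0.61 to -0.27). U937-AE was the highest line at 0 h, and against U937-CTR at 48 h it was at -0.32 (-0.47 to -0.17). Of the HOXA10 exon bases, 9.93% are shared with another gene of the same strand and 16.4% lie opposite HOXA10-AS.

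HOXA13, the gene at the 5′ end of the cluster, whose product patterns limbs and the lower body, was lower at 48 h than at 0 h in every line, the empty vector line included. It had 16.7, 14.1 and 10.8 FPKM in U937-CTR, 13.1, 15.0 and 8.27 FPKM in U937-AE, and 16.4, 14.3 and 11.8 FPKM in U937-EG. Each line was lowest at 48 h. The log2 fold changes of -0.63 (-0.75 to -0.50), -0.66 (-0.80 to -0.52) and -0.47 (-0.59 to -0.35) had overlapping intervals. Relative to U937-CTR, a difference of -0.04 (-0.22 to 0.15) was left in U937-AE and 0.16 (-0.01 to 0.33) in U937-EG. At 12 h, U937-AE differed in direction, with 0.19 (0.07 to 0.31) against -0.25 (-0.36 to -0.13) in U937-CTR and -0.20 (-0.31 to -0.09) in U937-EG. HOTTIP, the long noncoding RNA beside HOXA13 on the other strand, was at 2.67, 3.68 and 1.99 FPKM in U937-CTR, 2.94, 2.60 and 1.47 FPKM in U937-AE, and 1.91, 2.70 and 2.38 FPKM in U937-EG.

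HOXA11 went the other way in 2 of the 3 lines. It was at 11.9, 12.9 and 17.5 FPKM in U937-CTR, at 14.5, 19.1 and 19.7 FPKM in U937-AE, and at 14.1, 15.2 and 13.8 FPKM in U937-EG. The log2 fold change over 48 h was 0.56 (0.38 to 0.73), 0.44 (0.28 to 0.60) and -0.02 (-0.20 to 0.15). The change in the ETO2-GLIS2 line minus that in the control line was -0.58 (-0.82 to -0.33). HOXA11-AS, which lies opposite 27.2% of the HOXA11 exon bases, was at 2.65, 2.37 and 1.29 FPKM in U937-CTR and at 2.62, 3.17 and 3.59 FPKM in U937-AE.

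On the 3′ side of HOXA9, HOXA5 and HOXA6 were higher in U937-AE at 48 h than at 12 h. HOXA5, which takes part in myeloid lineage choice, had 7.43, 7.72 and 12.2 FPKM in U937-AE, 8.68, 8.07 and 8.08 FPKM in U937-CTR, and 8.39, 7.41 and 9.24 FPKM in U937-EG. HOXA6 had 5.35, 4.54 and 9.05 FPKM in U937-AE, 6.17, 4.68 and 4.40 FPKM in U937-CTR, and 3.21, 3.87 and 3.66 FPKM in U937-EG. For both genes the AML1-ETO library at 48 h was above the other 8 libraries, whose highest values were 9.24 and 6.17 FPKM. The log2 fold change from 12 to 48 h in U937-AE was 0.66 (0.41 to 0.92) for HOXA5 and 0.99 (0.62 to 1.38) for HOXA6. Over the full 48 h, relative to U937-CTR, the changes were 0.82 (0.46 to 1.19) and 1.25 (0.73 to 1.76), and HOXA6 in U937-EG was at 0.68 (0.08 to 1.28), where the control was lower at 48 h. HOXA5 shares no exon bases with another gene, whereas 39.3% of those of HOXA6 lie opposite HOXA-AS3, which stood at 0.889, 0.728 and 1.64 FPKM in U937-AE.

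HOXA3 and HOXA7, the lowest members, rest on few reads (88 to 164 and 40 to 87 per library). HOXA3 had 1.43, 2.16 and 1.33 FPKM in U937-CTR, 1.44, 2.21 and 1.91 FPKM in U937-AE, and 1.41, 1.74 and 2.33 FPKM in U937-EG, where its change over 48 h was 0.72 (0.37 to 1.08). The control returned to its starting level while the ETO2-GLIS2 line was highest at 48 h, and the difference between the 2 changes was 0.82 (0.28 to 1.36). HOXA7 had 2.22, 1.89 and 1.75 FPKM in U937-CTR, 1.80, 2.02 and 1.09 FPKM in U937-AE, and 1.15, 1.65 and 1.09 FPKM in U937-EG. Its changes relative to U937-CTR at 48 h had intervals that hold 0 in both fusion lines. With 62.5% of its exon bases opposite HOXA-AS3, HOXA7 is the member whose reads are least certain.

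**Figure D3:**
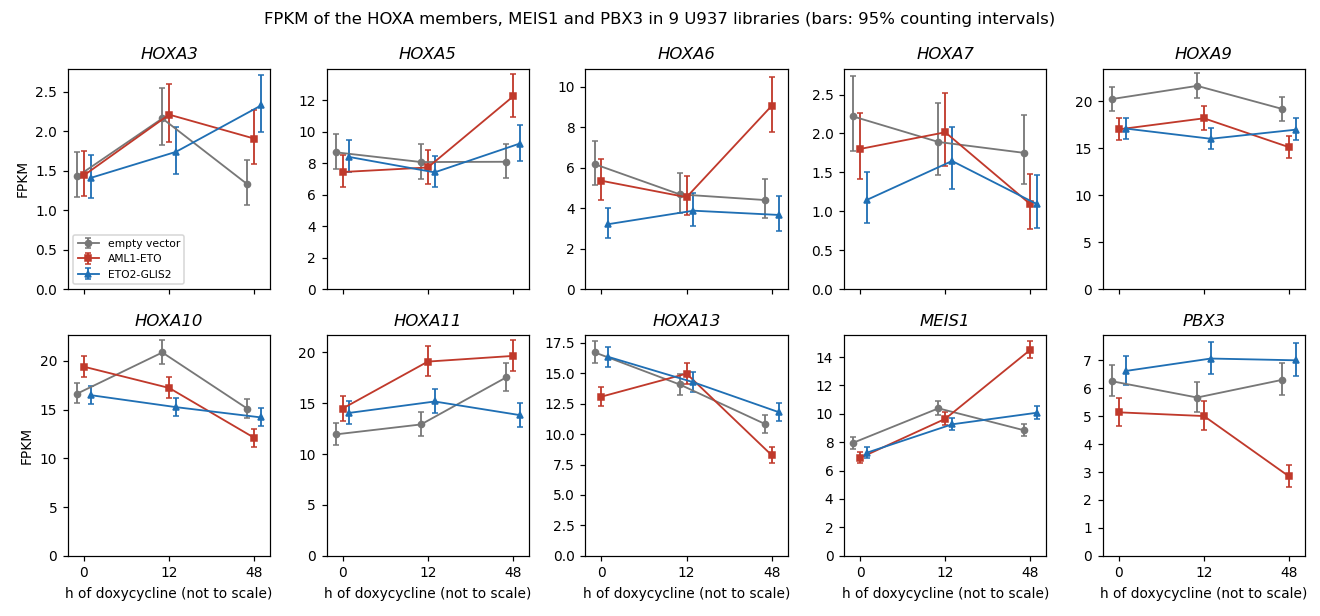
FPKM of each of the 10 genes at 0, 12 and 48 h in the empty vector (grey), AML1-ETO (red) and ETO2-GLIS2 (blue) lines, with 95% counting intervals and axes that start at 0 and differ between panels. The AML1-ETO line at 48 h stands above the other libraries for HOXA5, HOXA6 and MEIS1, barely above them for HOXA11 (19.7 against 19.1 FPKM), and below them for HOXA9, HOXA10, HOXA13 and PBX3.

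The balance within the cluster thus differed in 1 library. HOXA9, HOXA10, HOXA11 and HOXA13 gave 77.7% to 81.9% of the summed FPKM of the 8 HOXA members in 8 libraries, and 69.4% in U937-AE at 48 h. There the sum of these 4 was 55.1 FPKM, against 56.8 to 69.5 FPKM elsewhere, and the sum of HOXA3, HOXA5, HOXA6 and HOXA7 was 24.3 FPKM, against 14.2 to 18.5 FPKM elsewhere. The median log2 fold change over 48 h in U937-AE was -0.42 for the former group and 0.56 for the latter, and -0.11 and -0.22 in U937-CTR and -0.12 and 0.17 in U937-EG. The groups did not move as units: in U937-AE, HOXA11 of the former was at 0.44 and HOXA7 of the latter at -0.72. HOXA13 was 1.28 to 1.95 times HOXA5 in 8 libraries and 0.676 times HOXA5 in that one. It is also the library with the lowest summed myeloid markers, and their part in this was not tested.

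The TALE partners parted in U937-AE. MEIS1, which stabilizes HOXA9 on DNA, had 6.90, 9.65 and 14.5 FPKM in U937-AE, 7.96, 10.4 and 8.85 FPKM in U937-CTR, and 7.26, 9.26 and 10.1 FPKM in U937-EG. It was higher at 12 h than at 0 h in every line, by 0.48 (0.38 to 0.59), 0.38 (0.28 to 0.49) and 0.35 (0.25 to 0.45) on the log2 scale, beside medians over all genes of 0.18, 0.14 and 0.11. From 12 to 48 h the change was 0.59 (0.50 to 0.68) in U937-AE, -0.23 (-0.33 to -0.13) in U937-CTR and 0.12 (0.03 to 0.22) in U937-EG. Over 48 h the changes were 1.07 (0.97 to 1.17), 0.15 (0.05 to 0.26) and 0.47 (0.37 to 0.57), 3 intervals that do not overlap. Relative to U937-CTR, the change of MEIS1 was 0.92 (0.78 to 1.06) in U937-AE and 0.32 (0.18 to 0.47) in U937-EG. MEIS1 is the single member called past 2-fold over time, and the call is narrow: the change was 0.91 after rescaling by the median ratio and 0.97 with a pseudocount of 1 FPKM. Of the MEIS1 exon bases, 13.3% lie opposite MEIS1-AS2 and MEIS1-AS3.

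PBX3, the partner that binds with HOXA9 and MEIS1, was lower in U937-AE at 48 h than in any other library. It had 5.14, 5.01 and 2.84 FPKM there, 6.26, 5.67 and 6.31 FPKM in U937-CTR, and 6.62, 7.07 and 7.01 FPKM in U937-EG. The other 8 libraries lay between 5.01 and 7.07 FPKM. The log2 fold change over 48 h was -0.85 (-1.10 to -0.61) in U937-AE, 0.01 (-0.17 to 0.20) in U937-CTR and 0.08 (-0.09 to 0.25) in U937-EG, so the AML1-ETO interval lies apart from the other two. After rescaling by the median ratio the change in U937-AE was past 2-fold (-1.02). No annotated exon overlaps those of PBX3.

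The ratio of MEIS1 to PBX3, the pair of members whose levels moved apart most, was 1.10 to 1.93 in 8 libraries and 5.11 (4.44 to 5.91) in U937-AE at 48 h. It was higher at 12 h than at 0 h in all lines, at 1.83 in U937-CTR, 1.93 in U937-AE and 1.31 in U937-EG. Being a ratio within a library, it does not depend on the library's scaling. Its parts were not extreme among all genes. In U937-AE at 48 h against 0 h, 84.4% of the genes tested had a lower change than MEIS1 and 13.3% a lower one than PBX3. The SD of the log2 fold change over all genes tested was 1.48 there. How often pairs among all genes tested part this far was not computed, so the ratio is not shown to be unusual.

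**Figure D4:**
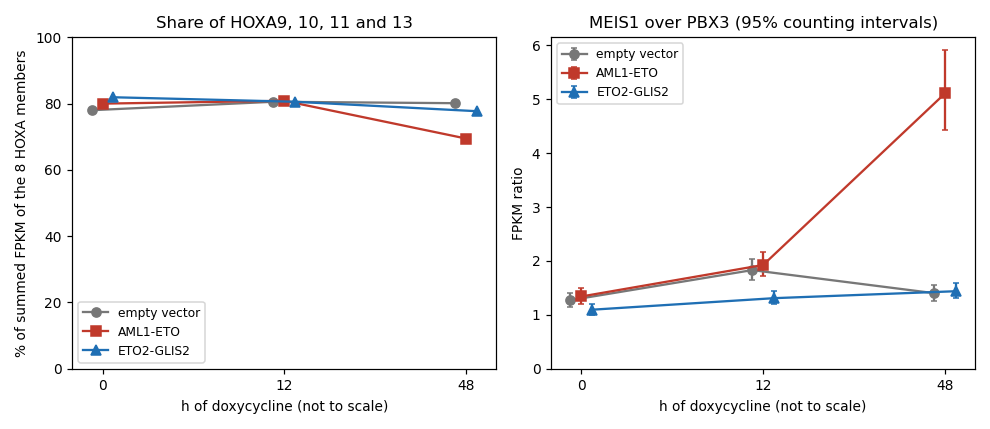
Left, share of HOXA9, HOXA10, HOXA11 and HOXA13 in the summed FPKM of the 8 HOXA members, in percent. Right, FPKM of MEIS1 divided by that of PBX3 with 95% counting intervals. Time runs along both horizontal axes in h of doxycycline. The AML1-ETO line at 48 h lies apart in both, at 69.4% and 5.11. For the ratio, no background of pairs among all genes was computed.

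Compared between lines at 48 h, 2 members were past 2-fold in U937-AE against U937-CTR, HOXA6 higher (1.04, 0.66 to 1.43) and PBX3 lower (-1.15, -1.39 to -0.91), where 23.5% of all genes were past 2-fold. In U937-EG against U937-CTR none was, against 6.67% of genes. In that pair, HOXA3 was the highest, at 0.81, and HOXA7 the lowest (-0.68, -1.27 to -0.11).

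Transcripts that lie among the HOXA genes did not always move with the members beside them. Of 11 further HOXA genes and noncoding transcripts, 10 are named in the files, and 6, 5 and 4 were tested at 48 h against 0 h in U937-AE, U937-EG and U937-CTR. HOXA-AS2, which lies opposite HOXA3, was called higher in both fusion lines, with 0.755, 1.5 and 1.67 FPKM in U937-AE, 0.519, 1.14 and 1.71 FPKM in U937-EG, and 0.815, 1.36 and 1.17 FPKM in U937-CTR. In U937-CTR it was too low to be tested over 48 h. All 3 lines were higher at 12 h than at 0 h, and the U937-AE call ended after rescaling (0.97). HOTAIRM1, a noncoding RNA of the cluster known to rise in myeloid maturation, went from 0.121 to 1.05 FPKM in U937-AE, from 0.109 to 1.10 FPKM in U937-EG and from 0.205 to 0.565 FPKM in U937-CTR, below the level needed for a call. HOXA11-AS was called lower in U937-CTR (-1.04), where HOXA11 was higher (0.56), and in U937-AE both were higher (0.45 and 0.44). The 5 genes beside the cluster, SKAP2, SNX10, HIBADH, HNRNPA2B1 and CBX3, passed 2-fold over time in no line. Of all genes tested at 48 h against 0 h, 17.3% were called higher and 11.3% lower in U937-AE. The shares were 10.8% and 2.54% in U937-EG, and 8.0% and 2.99% in U937-CTR. Lists this short are too small to set apart from these shares.

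The other HOX clusters were far less active, apart from HOXC. No HOXB gene was above 0.027 FPKM in any library. In U937-AE at 48 h, 5 genes of the 28 in HOXB, HOXC and HOXD were tested, 3 were called higher and 1 lower, where 17.3% and 11.3% of all genes were. HOXC10 was at 14.5, 9.45 and 1.86 FPKM in U937-AE (569, 346 and 67 reads), against 9.43 to 10.4 FPKM in U937-CTR and 10.7 to 10.8 FPKM in U937-EG. HOXC8 was at 0.873, 1.10 and 4.98 FPKM in U937-AE and HOXC6 at 3.66, 3.99 and 11.1 FPKM. HOXC6 was called higher in U937-EG as well, from 2.63 to 5.62 FPKM, and went from 3.09 to 4.64 FPKM in U937-CTR. Its call in U937-EG ended after rescaling (0.92). In HOXD, HOXD10 and HOXD9 had 107 and 36 reads (2.61 and 1.26 FPKM) in U937-AE at 48 h and 0 reads at 0 h, which makes them at least 38.9-fold and 13.1-fold higher, taking 3 reads as the floor of a library. HOXD11, whose exons partly overlap those of HOXD10, had 24 reads against 3, an 8.72-fold ratio (2.65 to 45.2).

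Among 9 other TALE genes, PBX2 was the most abundant. PBX2, a paralog that also pairs with HOX proteins, was at 41.4, 46.9 and 97.1 FPKM in U937-AE, 34.4, 33.8 and 37.4 FPKM in U937-CTR, and 25.5, 24.6 and 34.1 FPKM in U937-EG. It was called higher in U937-AE (log2 fold change 1.23), where PBX3 was lower, and 15.2% of its exon bases are shared with another gene on the same strand. TGIF1, a TALE repressor, was also called higher in U937-AE, from 3.55 to 7.63 FPKM, and went from 3.20 to 5.74 FPKM in U937-CTR. Its call ended after rescaling (0.93). MEIS3 was called higher in U937-EG, from 0.762 to 2.19 FPKM, and went from 0.264 to 0.646 FPKM in U937-CTR, too low to be tested there, and from 1.0 to 1.6 FPKM in U937-AE. PBX4 stayed below 0.06 FPKM and PKNOX2 was at 0 throughout.

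Of 21 listed regulators of the cluster, 18 were tested in U937-AE at 48 h and 3 were called higher, a share near the 17.3% of all genes, and none lower (11.3% of all genes). KMT2A, the methyltransferase that keeps HOXA genes on, was at 3.28, 4.03 and 7.36 FPKM, AFF4, a subunit of the super elongation complex, at 5.11, 5.84 and 12.7 FPKM, and PICALM at 14.4, 18.0 and 29.7 FPKM. The KMT2A and PICALM calls ended after rescaling (0.996 and 0.88). In U937-CTR PICALM went from 14.6 to 20.7 FPKM and in U937-EG from 17.0 to 23.9 FPKM. MLLT10 went from 4.06 to 7.11 FPKM in U937-AE, from 3.53 to 6.10 FPKM in U937-EG and from 3.81 to 5.33 FPKM in U937-CTR, and the gene counts do not separate the PICALM-MLLT10 transcript from those of the intact genes. None was called in the other lines, with 18 tested in U937-CTR and 17 in U937-EG. Of all genes, 8.0% were called higher and 2.99% lower in U937-CTR, and 10.8% and 2.54% in U937-EG. The difference between lines was not tested.

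Of 15 genes described elsewhere as targets of HOXA9 and MEIS1, 10 were tested in U937-AE at 48 h, 6 were called lower (11.3% of all genes were) and 1 higher (17.3%), with a median log2 fold change of -1.16 (all genes 0.22). FLT3, a receptor kinase of progenitors, was at 9.38, 5.83 and 0.743 FPKM, BCL2, which blocks apoptosis, at 3.03, 1.37 and 0.413 FPKM, and ID2, an inhibitor of bHLH factors, at 17.7, 4.27 and 4.99 FPKM. The control line was also lower at 48 h for FLT3 (7.43 to 4.89 FPKM) and BCL2 (4.72 to 2.47 FPKM), and the changes relative to it were -3.04 (-3.51 to -2.56) for FLT3, -1.91 (-2.30 to -1.53) for BCL2 and -1.81 (-2.09 to -1.52) for ID2. MYB, MYC and SOX4 were called lower too (-1.09, -1.35 and -1.23). They were not lower at 12 h in U937-AE, with MYC at 0.51 (0.43 to 0.58), MYB at 0.15 (0.11 to 0.20) and SOX4 at 0.10 (-0.06 to 0.27). Relative to U937-CTR, the change of MYC at 12 h was 1.07 (0.96 to 1.18). Relative to U937-CTR at 48 h, the changes of MYB and MYC were -0.83 (-0.91 to -0.76) and -0.42 (-0.56 to -0.28), both short of 2-fold. SOX4 had a log2 fold change of -0.51 in U937-CTR. In U937-CTR, MYC and BCL2 had log2 fold changes of -0.93 each, short of 2-fold. MSI2, an RNA-binding protein of stem cells, was called higher, from 2.61 to 5.63 FPKM, a call that ended after rescaling (0.94). In U937-EG 10 of the list were tested and 1, TRIB2, was called higher (7.21 to 20.9 FPKM), where 10.8% of all genes were. None was called lower there (2.54% of all genes were). Of those tested in U937-EG, ID2 and TRIB2 were higher at 48 h than at 0 h and the others lower, FLT3 lowest (-0.73). In U937-CTR none of 11 was called (8.0% of all genes were called higher and 2.99% lower), and their median was -0.43 (all genes 0.16).

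**Figure D5:**
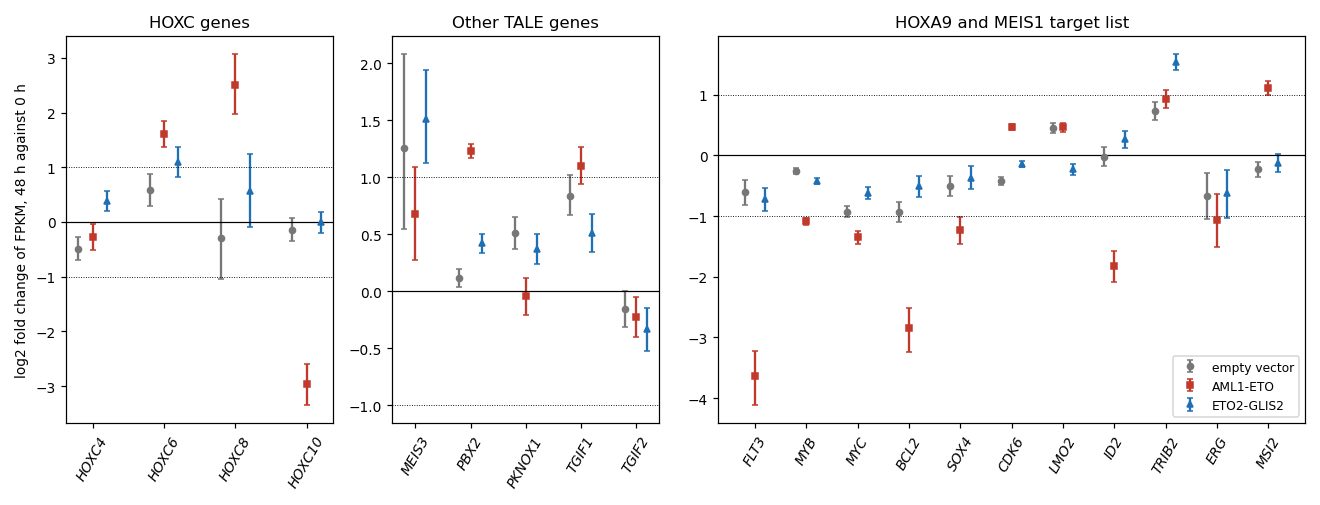
Log2 fold change of FPKM at 48 h against 0 h for HOXC genes, other TALE genes and the HOXA9 and MEIS1 target list, for genes above 0 FPKM at 0 h in all 3 lines and tested in at least 1, with 95% counting intervals, dotted lines at 2-fold and vertical scales that differ between panels. In the AML1-ETO line FLT3, HOXC10 and BCL2 lie lowest, at -3.64, -2.96 and -2.84.

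The genes whose profile over the 9 libraries was nearest to a member were ranked by the root mean square difference of centred log2 FPKM, among genes with a similar SD. For MEIS1 these were ABCD4, ALG13 and MFAP3, with differences of 0.058, 0.082 and 0.083 among 5841 genes. ABCD4 ran from 3.12 FPKM in U937-AE at 0 h to 6.64 FPKM in U937-AE at 48 h, the same lowest and highest libraries as MEIS1. For PBX3 they were ZDHHC13, KNL1 and ROCK2 (0.084, 0.088 and 0.098 among 5386 genes), and each was lowest in U937-AE at 48 h, KNL1 at 8.64 FPKM against 15.4 to 22.9 FPKM elsewhere. For HOXA9 they were ZNF619, FAHD2A and EYA3 (0.086 for each among 3138 genes). How near the nearest profile of other genes is was not computed.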

How the data were processed

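RNA-seq libraries from 3 U937 lines at 3 times were used (9 libraries, TruSeq RNA v2, strand not marked). Per the paper's methods and the submitters' processing notes, the authors aligned reads to hg38 with HISAT2 (2.0.5), handled alignments with SAMtools (1.7), counted reads with HTSeq (0.9.1) and deposited FPKM per Ensembl gene. The annotation version is not given in the sources used here. Reads behind the FPKM were recovered from their whole-number steps (98.8% of 23889 genes above 0 in at least 3 libraries, tolerance 0.02 reads), a procedure tested on simulated data, and were used only for intervals and floors.

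Fold changes are log2 of FPKM plus 0.01. A gene was tested with a mean of at least 1 FPKM over the 2 libraries and called past 2-fold. The fold intervals are exact 95% Clopper-Pearson intervals of the reads, and those of levels exact Poisson intervals. Differences between the changes of 2 lines have normal 95% intervals on log counts. These intervals cover counting error only, because PCR copies were not told apart and cultures were not repeated. Groups follow the sample titles. The members and lists were chosen with earlier results of these data known. Genes named are the 10 members, listed genes that were called or describe a list, and the 3 nearest profiles of HOXA9, MEIS1 and PBX3. Coordinates and promoters are from RefSeq (GRCh38.p14), and exon overlaps from an annotation on GRCh37, whose coordinates are not used. Some results on further genes of the lists are not reported here. Alternatives covered pseudocount, filter, scaling, fold threshold, time, reference library and subtraction of the control line. Python (3.11.15), numpy (2.4.6), pandas (2.3.3), scipy (1.17.1) and matplotlib (3.10.9) were used.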

Additional observations from a re-analysis of the deposited data

Results flagged for a closer look

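Across the 10 members and the listed genes, taking those with a mean of at least 1 FPKM over the libraries compared at 48 h, 2 regulators or targets moved in opposite directions in the fusion lines at both times, each beyond its counting interval. BMI1, a Polycomb subunit, was at 47.4, 72.1 and 65.2 FPKM in U937-AE at 0, 12 and 48 h and at 68.2, 64.6 and 49.0 FPKM in U937-EG, and the log2 fold change at 48 h was 0.94 higher in U937-AE. In U937-CTR it was at 61.2, 60.2 and 56.5 FPKM, and 22.8% of its exon bases are shared with COMMD3-BMI1. LMO2, a hematopoietic transcription cofactor, was at 59.9, 79.7 and 82.5 FPKM in U937-AE and at 46.2, 42.5 and 39.4 FPKM in U937-EG, a difference of 0.69 in the log2 fold change at 48 h, and at 41.8, 44.5 and 57.0 FPKM in U937-CTR. With 1 library per condition these differences were not tested. No member met this rule, and groups of 1 library cannot be searched for an outlying sample.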

How the results depend on the processing

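The medians of the 10 members stayed within the spread of the members under every alternative run. That spread is wide and comes from the same genes, so their median could hardly leave it, and no conclusion is drawn from this. The counts of called members, which are small, moved more. In U937-AE, the 1 member called higher became 0 with a pseudocount of 1 FPKM, after rescaling, at 12 h and against U937-CTR at 0 h, and 3 at a 1.5-fold threshold. With the change of U937-CTR subtracted the count stayed 1, but the gene past 2-fold was HOXA6 (1.25), and MEIS1 was at 0.92. The 0 called lower became 1 after rescaling, 4 at 1.5-fold and 3 against U937-CTR at 0 h. In U937-CTR, 1 was called lower at 1.5-fold. In U937-EG, 1 was called higher at 1.5-fold and 1 lower against U937-CTR at 0 h. Beyond the lower threshold itself, the cause was not tested. Filters and a pseudocount of 0.1 FPKM moved no count. Of the 30 changes of single members, 13 left their counting interval after rescaling, 18 at 12 h and 1 with a pseudocount of 1 FPKM. In the fusion lines, 11 left it and 9 stayed with U937-CTR at 0 h as the reference. With the change of U937-CTR subtracted, 10 left it and 10 stayed. No called member changed sign. Members with few reads have the widest counting intervals, and changes within them were not detectable at this depth. No paired analysis was possible because the labels carry no replicate numbers, and the changes over time are already taken within a line. With 1 library per condition, none could be left out.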
